A study of Mus musculus with 12 samples.

Results

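The state described here is the expression pattern of MB114 cells 5 h after transfer to Matrigel, read against the times on both sides of it. Of the 12 arrays of the series, 9 define it, 3 each at 1, 5 and 15 h. The 3 arrays at 25 h were not part of the contrast itself. They entered the choice of genes and probe sets by brightness, the fit of the replicate block and the spread, and a later check. MB114 is a mouse line labelled as microvascular endothelial, and Matrigel is a basement membrane extract on which such cells draw together into cords. All groups were the same line, split 1:3 24 h before transfer and harvested from the gel. By the labels the 4 groups differed only in time since transfer. Cells off the gel were not among them, so effects of the gel and of time since transfer cannot be told apart. The label of cell type was not borne out by most markers: 3 of 19 measured endothelial marker genes (Flt1, Cdh5 and Cd34) passed the brightness filter, Pecam1 stayed between 9.4 and 47.6 and Vwf between 1.00 and 2.70 on all 12 arrays, while 10 of 13 fibroblast markers passed. The cells are therefore called MB114 cells.

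For each gene the log2 MAS5 signal at 5 h was set against the average of the 1 h and 15 h means. This difference is the 5 h contrast, tested with limma with the replicate number as a block and adjusted by Benjamini-Hochberg over 7379 genes. A gene peaked when the adjusted p was under 0.05 and its 5 h mean lay above both neighbours, and dipped when it lay below both. MAS5 signal is a linear intensity that condenses the probes of a transcript, so levels are compared within a gene and never between genes. In RNA from whole cultures, fewer cells of a kind and less RNA per cell cannot be told apart. Values of single arrays are given in the order of replicates 1, 2 and 3.

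Cells that meet a new matrix pass through phases that are known from other systems. Attachment and serum bring a brief burst of immediate early genes, which encode transcription factors such as Fos and Egr1. Cells that make more secreted protein than their endoplasmic reticulum can fold start the unfolded protein response, in which the sensors IRE1, PERK and ATF6 raise chaperones, and PERK acts through the translation factor eIF2 and the factor ATF4. The same ATF4 branch answers a lack of amino acids by raising transporters, synthetic enzymes and aminoacyl tRNA synthetases. In endothelial cells, VEGF and Notch set tip cells apart from stalk cells, and ligands of the TGF-beta family steer matrix deposition and quiescence.

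At 5 h, 354 genes peaked (4.80% of those tested) and 485 dipped (6.57%). A further 98 genes (1.33%) passed the test with the 5 h mean between its neighbours, which the rule does not count. The median contrast of the peaks was 0.61 and that of the dips −0.72, against −0.01 over all tested genes. Most of these genes had unequal steps: the step to 15 h was the larger in 248 peaks and 366 dips, and the smaller of the steps was under 0.25 on the log2 scale in 102 peaks and 141 dips. Both steps reached 2-fold in 14 peaks and 31 dips. When each step had to pass on its own, by the larger of both p-values adjusted over all genes, 11 genes were up (0.149%) and 18 were down (0.244%), and without adjustment 257 (3.48%) and 281 (3.81%). Taken one at a time, 331 genes were higher (4.49%) and 242 lower (3.28%) at 5 h than at 1 h, and 986 were higher (13.4%) and 1429 lower (19.4%) than at 15 h. Both steps share the 5 h arrays, so they are not independent.

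The 3 values at 5 h lay above all 6 neighbouring values in 122 of the 354 peaks and below all 6 in 124 of the 485 dips, where the shares over all genes were 2.66% above and 2.22% below. The calls were made from these same values, so the selection itself raises the share and it only describes the called genes. The 25 h mean lay below the 5 h mean in 350 of the peaks and above it in 479 of the dips. Over all tested genes the same held for 1746 of the 2002 with their 5 h mean above both neighbours and for 1789 of the 1997 with it below both. Choosing genes on an extreme 5 h mean largely sets this direction, so nothing is read from it. The exceptions among the peaks were Grem1, Mt2, Nxph3 and Rasa3, and among the dips Ankrd1, Junb, Loxl4, Rras2, Srrm1 and Stard4.

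The counts rest on the replicate block and on single arrays. Without the block 43 genes peaked and 67 dipped, all of them among the genes above. The 4 arrays numbered 1 carried hybridisation spike-ins of 800 to 996 against 344 to 483 on the others, and an 18S rRNA control of 710.3 to 2557.5 against 101 to 178.4. Leaving these 4 arrays out gave 58 peaks and 146 dips, of which 55 and 132 were shared. Leaving out 5 h replicate 2 gave 157 peaks and 251 dips. The peaks fell to 205 without 5 h replicate 1, to 193 without 5 h replicate 3 and to 215 without 15 h replicate 1, and the dips fell to 314 without 15 h replicate 2. Of the 129 called genes that a rule or the test of both steps put forward for naming, 71 stayed called whichever single array was left out, 43 without the block and 67 without the arrays numbered 1.

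**Figure D1:**
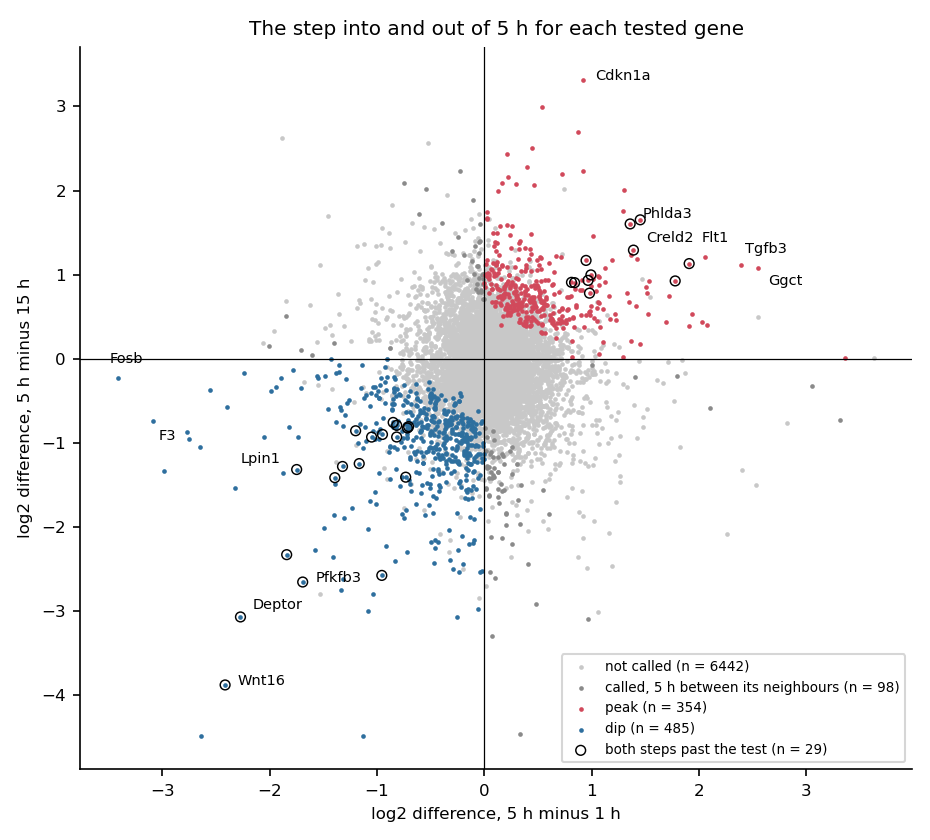
Each point is 1 of 7379 tested genes, placed by its log2 difference between 5 h and 1 h (horizontal) and between 5 h and 15 h (vertical), from the means of 3 arrays per time. Peaks (354) lie at the upper right and dips (485) at the lower left, many of them close to an axis with 1 small step, and circles mark the 29 genes in which both steps passed the test.

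Genes of endoplasmic reticulum folding and of the unfolded protein response were among the fullest groups at 5 h. Of 25 tested members 11 peaked (44.0%) and 0 dipped, 19 had their 5 h mean above both neighbours and 0 below both (27.1% each over all genes), and the median contrast was 0.39. Unadjusted p-values under 0.05 gave 14 peaks and 0 dips, against 848 peaks and 965 dips among all 7379 tested genes. The unadjusted counts of later lists are to be read against the same background. Creld2, a secreted protein that the unfolded protein response induces, led them. Its signals were 1215, 1109 and 1142 at 1 h, 3134, 3828 and 2315 at 5 h and 1178, 998 and 1609.9 at 15 h. The 3 values at 5 h lay above all others, 25 h included (1419.7, 1513 and 1388), and exceeded 1 h by 2.62-fold and 15 h by 2.45-fold, in 3 of 3 pairs of equal number for each. Its contrast was 1.34 ± 0.17 (SE), with limma adjusted p = 0.000674, and both steps passed together (adjusted p = 0.0156).

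Hspa5, also named BiP, is the chaperone that holds the sensors inactive until unfolded protein draws it away. Its signals were 10483, 10495 and 12107 at 1 h, 19654, 15707 and 11934 at 5 h and 9361, 6461 and 9847 at 15 h. Replicate 3 did not rise between 1 and 5 h, and its 5 h value lay below its own 1 h value, whereas replicates 1 and 2 rose. The contrast of 0.68 ± 0.15 passed in limma (adjusted p = 0.0117) with a step of 1.84-fold above 15 h. It was lost without the block (adjusted p = 0.0725), without 5 h replicate 1 (0.0857), without 5 h replicate 2 (0.0736) and without the arrays numbered 1 (0.118).

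Manf and Sdf2l1 encode small proteins of the reticulum that assist BiP. Manf read 2054, 1447 and 1855 at 1 h, 3897, 4883 and 2399.8 at 5 h and 1175, 919 and 2026 at 15 h. The 3 values at 5 h lay above all 9 others, although replicate 3 rose little. Its contrast was 1.24 ± 0.25 (limma adjusted p = 0.00725), and 0.90 without 5 h replicate 2 (adjusted p = 0.0566). Sdf2l1 rose from 148, 183 and 151 at 1 h to 386, 894 and 421 at 5 h and lay at 266, 289 and 401 at 15 h. It rose and fell in 3 of 3 pairs, though 5 h replicate 1 lay below 15 h replicate 3. Its contrast of 1.23 ± 0.23 (limma adjusted p = 0.00533) stayed past the threshold whichever single array was left out.

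The other peaks of the list were Edem1, which helps to clear misfolded glycoproteins (0.72), the BiP partners Dnajc3 (0.69) and Dnajb11 (0.60), the oxidase Ero1a (0.65), Xbp1, the transcription factor that IRE1 activates by splicing (0.62), the chaperone Hyou1 (0.57) and Herpud1 of the degradation pathway (0.56), each as a log2 contrast. Members that did not pass included Pdia4 (0.36), Calr (0.15) and Hsp90b1 (0.01). Of 26 tested genes of transport from the reticulum to the Golgi, 0 peaked and 0 dipped in limma, and 1 peaked and 1 dipped at an unadjusted p under 0.05, with a median contrast of −0.03. The 11 peaks of the folding list became 4 without the block, 2 without the arrays numbered 1 and 3 without 5 h replicate 2, among the lost Herpud1 (limma adjusted p = 0.0595). The other 2 probe sets of Ero1a above the filter did not peak.

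Many promoters of this response hold the ER stress response element, a CCAAT box and CCACG with 9 bases between them. Among RefSeq promoters of 300 bases (250 before to 50 after a start site, build GRCm38.p6), searched on both strands, 0.12% of 32851 entries held it. Among tested genes with an entry it was found in 11 of 6049, and 8 of these were among the 21 folding genes with an entry: Creld2, Hspa5 and Dnajc3, which peaked, and Calr, Canx, Hsp90b1, Pdia6 and Syvn1, which did not pass. The element includes a CCAAT box, which alone occurred in 37.4% of entries. The windows of the peaking genes are shown because these are the list's peaks that hold the element, 5′ to 3′ on the strand of the gene, with the element in capitals. They lie on the + strand at chr15:88819500-88819558 (Creld2, element reversed), chr2:34772005-34772063 (Hspa5) and chr14:118937807-118937865 (Dnajc3), all before the start site.
Creld2: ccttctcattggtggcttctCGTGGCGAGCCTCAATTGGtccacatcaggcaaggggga
Hspa5: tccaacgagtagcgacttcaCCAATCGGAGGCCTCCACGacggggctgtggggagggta
Dnajc3: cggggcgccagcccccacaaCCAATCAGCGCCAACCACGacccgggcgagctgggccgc

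The amino acid response was represented by 25 tested genes, of which 9 peaked (36.0%) and 1 dipped, with a median contrast of 0.29. The 5 h mean lay above both neighbours in 13 members and below both in 2. Unadjusted p-values under 0.05 gave 10 peaks and 2 dips. Slc7a5, the light chain of the LAT1 transporter of large neutral amino acids, read 2981, 2978 and 2128 at 1 h, 4349.9, 4221 and 2719 at 5 h and 1054, 1004 and 649 at 15 h. Within each replicate number the signal rose by a similar factor between 1 and 5 h, 1.38-fold on average. It then fell 4.17-fold by 15 h and further to 476, 368 and 257 at 25 h. Replicate 3 was the lowest at every time, so that its 5 h value lay below the other 1 h values. The contrast was 1.26 ± 0.11 (limma adjusted p = 8.43e-05).

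Mthfd2 and Shmt2, mitochondrial enzymes of folate metabolism, and Phgdh, the first enzyme of serine synthesis, had small first steps and large second ones. Mthfd2 read 3380.2, 2715 and 2418 at 1 h, 4407, 3223 and 2417 at 5 h and 1377, 868 and 1056 at 15 h, level in replicate 3 between 1 and 5 h, and its contrast was 0.90 (limma adjusted p = 0.00288). The contrasts of Shmt2 and Phgdh were 0.75 and 0.68, with steps of 1.24-fold and 1.22-fold above 1 h that did not pass by themselves (limma adjusted p = 0.272 and 0.326). Averaging the probe sets of Phgdh took its contrast to 0.20 (adjusted p = 0.402), and the call was lost without 5 h replicate 3 (0.0562).

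Ddit3, or CHOP, is a transcription factor that ATF4 induces under lasting stress. It read 594, 550.4 and 492 at 1 h, 869.9, 929 and 525 at 5 h and 470, 397 and 491 at 15 h, and 655, 648 and 596 at 25 h. Replicates 1 and 2 rose at 5 h, while replicate 3 stayed within the range of the other times. The contrast of 0.60 (limma adjusted p = 0.0269) was lost without 5 h replicate 1 (0.111), 5 h replicate 2 (0.163), 1 h replicate 2 (0.0508), 15 h replicate 1 (0.0601) or 15 h replicate 2 (0.064). Atf4 itself was highest at 1 h, with 5950.1, 5181 and 5279.9 at 1 h, 4885, 4826 and 4215 at 5 h and 2578, 2624 and 2665 at 15 h, and its contrast of 0.29 did not pass (limma adjusted p = 0.0775).

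Slc38a2, the SNAT2 transporter of small neutral amino acids, was the only member called as a dip. It read 4332, 4991 and 4556 at 1 h, 2469, 3101 and 2356 at 5 h and 5688, 5713 and 3832 at 15 h, so the 3 values at 5 h lay below all 6 neighbours, in 3 of 3 pairs on each side. It fell 1.76-fold below 1 h and 1.90-fold below 15 h, and both steps passed together (limma adjusted p = 0.0431). At 25 h the signals were 6301, 4503 and 4732.

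Of 18 tested cytosolic aminoacyl tRNA synthetases, the enzymes that load amino acids onto tRNA, 8 peaked (44.4%) and 0 dipped, and 16 had their 5 h mean above both neighbours. Unadjusted p-values under 0.05 gave 10 peaks and 0 dips. The 8 were Wars (0.68), Tars (0.65), Yars (0.64), Hars (0.63), Gars (0.58), Farsb (0.55), Aars (0.43) and Nars (0.39), as log2 contrasts. Tars, the threonine enzyme, read 2794, 2682 and 1986 at 1 h, 3918, 3719.6 and 2540.2 at 5 h and 2211, 1992 and 1390.1 at 15 h. It rose 1.36-fold above 1 h and stood 1.82-fold above 15 h in 3 of 3 pairs each, and its contrast passed in limma (adjusted p = 0.00188) whichever single array was left out, but not without the block (0.123). Gars, the glycine enzyme, read 4287, 3318 and 3537 at 1 h, 5859, 5590.1 and 3918 at 5 h and 3628, 2949.8 and 2743 at 15 h, and it lost its call without 5 h replicate 2 (0.0514) and without the block (0.0875). Without 5 h replicate 2 the calls of Wars (limma adjusted p = 0.0896), Yars (0.0923) and Aars (0.0856) were lost, and without 5 h replicate 1 those of Wars (0.0657) and Aars (0.122). The block weighed heavily here: each of the 8 lost its call without it, and 1 of the 8 kept it without the arrays numbered 1. For the 9 peaks of the amino acid list the count was 2 under both of these settings.

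ATF4 acts through a composite element with the letters TGATGNAA, which 3.97% of all promoter entries and 148 of 6049 tested genes with an entry (2.45%) held on either strand. It was found in 8 of 24 genes of the amino acid list and in 5 of 11 synthetases that had an entry. Among the peaks it stood in Asns and Trib3 and in Aars, Gars, Tars and Yars, and outside them in Atf3, Chac1, Nupr1, Slc1a4, Slc7a11, Vldlr and Iars. Asns makes asparagine, and its contrast was 0.55. The windows of Asns, Gars and Tars are shown as examples of a match at most 30 bases upstream of the start, 5′ to 3′ on the strand of the gene, with the element in capitals and reversed in Gars and Tars. They lie at chr6:7693205-7693252 (− strand), chr6:55037951-55037998 (+ strand) and chr15:11399646-11399693 (− strand) of GRCm38.p6. Aars also had a match upstream, farther from the start. The 3 examples were chosen after their values were seen.
Asns: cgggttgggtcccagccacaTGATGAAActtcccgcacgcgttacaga
Gars: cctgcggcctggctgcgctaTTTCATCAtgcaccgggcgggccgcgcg
Tars: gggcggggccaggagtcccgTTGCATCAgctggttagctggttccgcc

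Some ligands of the TGF-beta family peaked while a co-receptor dipped. Of 20 tested ligands, receptors and carriers 6 peaked (30.0%) and 2 dipped. The median contrast of the list was −0.08, and 6 members had their 5 h mean above both neighbours and 6 below both. The 6 peaks became 2 without the block and 2 without the arrays numbered 1, Tgfb1 and Tgfb3 each time. The 2 dips became 1 and 0. Tgfb3 read 279.9, 100.3 and 234 at 1 h, 1289, 1014 and 734 at 5 h and 402, 445 and 534 at 15 h, and 503, 513 and 797 at 25 h. The 5 h values lay above all 6 neighbours, although 25 h replicate 3 was higher than 5 h replicate 3. The gene rose 5.26-fold above 1 h and stood 2.16-fold above 15 h, and its contrast was 1.75 ± 0.26 (limma adjusted p = 0.00171). That call was kept without the block, without the arrays numbered 1 and whichever single array was left out.

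Tgfb1 rose steeply at first and then declined slowly. It read 705, 302 and 532 at 1 h, 2194, 2292 and 1548 at 5 h and 1406, 1532 and 1442 at 15 h. Every 5 h value exceeded every value of the other times, the lowest of them by little, and the step to 15 h of 1.36-fold did not pass (limma adjusted p = 0.198). The step of 4.10-fold from 1 h did (adjusted p = 0.00061), and the contrast was 1.24 (adjusted p = 0.00431). Tgfb2 (0.62) and Inhba, a subunit of activin (1.58), also peaked (limma adjusted p = 0.049 and 0.0362).

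Acvr1, or ALK2, a type I receptor for BMPs, was one of the 11 genes with both steps up. It read 560.1, 728 and 917 at 1 h, 1094, 1464 and 1347 at 5 h and 512, 914 and 701 at 15 h. The 3 values at 5 h lay above all 9 others. The steps were 1.79-fold and 1.87-fold (both passed together, limma adjusted p = 0.0431). Averaging its 3 probe sets reduced the contrast from 0.87 to 0.44 (adjusted p = 0.0584), and neither of the other probe sets peaked alone. Without the block the adjusted p was 0.0688, and without the arrays numbered 1 it was 0.0587.

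Grem1, an extracellular BMP antagonist, peaked by the rule (1.15, limma adjusted p = 0.0136), but its 25 h signals of 2062, 2725 and 3040.5 lay above the 5 h signals of 2077, 2603 and 1842 in replicates 2 and 3 and level with them in replicate 1. It was lost without 5 h replicate 1 (0.0722), 5 h replicate 2 (0.0919), the arrays numbered 1 (0.136) or the block (0.0725). Tgfbr3, the co-receptor betaglycan, dipped. Its signals were 807, 763 and 846 at 1 h, 162, 366 and 577 at 5 h and 1331, 1206 and 1081 at 15 h, and the 3 values at 5 h lay below all 6 neighbours but spread widely among themselves. The contrast of −1.60 ± 0.32 (limma adjusted p = 0.00736) became −1.005 without 5 h replicate 1, and its adjusted p was 0.0698 without the arrays numbered 1. Ltbp4, a carrier of latent TGF-beta, dipped too (−0.60, limma adjusted p = 0.0328).

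Target genes of the family split. Of 19 tested, Id1, Id3 and Pmepa1 peaked and Tgfbi and Ccn2 dipped. Id1, an inhibitor of basic helix-loop-helix factors that BMP signals induce, read 2494, 1545 and 1547 at 1 h, 4613, 3639 and 5884 at 5 h and 2534, 2325 and 4154 at 15 h. Each replicate number had its maximum at 5 h, by 2.55-fold and 1.59-fold on average, but 15 h replicate 3 lay above 5 h replicate 2. The contrast of 1.01 (limma adjusted p = 0.00596) was lost without the block (0.0742), as were the calls of the other 4. Id3, a relative, stood at 4026 ± 993 at 5 h and 3939.6 ± 1369 at 15 h (mean ± SD, n = 3 arrays), so its contrast of 0.56 (limma adjusted p = 0.0101) lay almost wholly in the first step. It was lost without 5 h replicate 1 (0.066), and without 15 h replicate 2 or under quantile normalization its 5 h mean was no longer the highest.

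Among genes of VEGF signalling and tip cells, 3 of 13 peaked (23.1%), Flt1, Dll4 and Plaur, and 1 dipped. Dll4 is counted again in the Notch list and Plaur in the list of proteases. The 3 peaks became 1 without the block and 2 without the arrays numbered 1, and the dip was kept in both. Flt1, the VEGF receptor 1 and one of the few endothelial markers above the filter, read 181, 85.3 and 129.6 at 1 h, 602, 375 and 645 at 5 h and 191, 258 and 238 at 15 h, and 249, 236 and 277 at 25 h. The 3 values at 5 h lay above all 9 others. They exceeded 1 h by 4.17-fold and 15 h by 2.31-fold, with a contrast of 1.64 ± 0.22 (limma adjusted p = 0.000826). Both of its other probe sets peaked, and the call was kept whichever single array was left out, without the block and without the arrays numbered 1.

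Vegfd, a ligand of the VEGF receptor family, did the reverse. It read 1476, 1498 and 1625 at 1 h, 615, 416 and 900.3 at 5 h and 1494, 1484 and 1485 at 15 h. The values at 1 h and 15 h were nearly equal, and each 5 h value lay far below, by 2.50-fold against 1 h and 2.43-fold against 15 h. Both steps passed together (limma adjusted p = 0.0104), and its other 2 probe sets dipped as well. By 25 h the signals had reached 1792, 1859.8 and 2243. Vegfa, the main ligand in angiogenesis, did not pass: its contrast was 0.14 ± 0.22 (limma adjusted p = 0.723), and it turned to −0.10 without 5 h replicate 3 and to −0.02 without 15 h replicate 3.

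The Notch ligand Dll4 and the receptor Notch1 were the 2 peaks among 8 tested Notch genes. Dll4, a mark of tip cells, read 781, 281 and 79.0 at 1 h, 668, 402 and 199.5 at 5 h and 66.8, 55.2 and 28.7 at 15 h, falling in replicate 1 and rising in replicates 2 and 3 between 1 and 5 h. Its first step was 1.46-fold (limma adjusted p = 0.599) and its second 7.97-fold. The 15 h signals were dim, near the 25th percentile of all signals (44.9). With an offset of that size the second step was 4.56-fold. The contrast of 1.77 ± 0.48 (adjusted p = 0.0301) was lost without 1 h replicate 3 (0.053), 5 h replicate 1 (0.0814), 5 h replicate 2 (0.14), 5 h replicate 3 (0.081), 15 h replicate 1 (0.0692) or 15 h replicate 3 (0.0504), and also without the block (0.229) and without the arrays numbered 1 (0.143). Notch1 (0.83, adjusted p = 0.0214) was lost without 5 h replicate 1 (0.108), 5 h replicate 2 (0.137), the block (0.0845) or the arrays numbered 1 (0.176).

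In the EGF and MAPK list 3 of 15 genes peaked and 1 dipped. Btc, betacellulin, is a ligand of the EGF receptor. It read 162, 187 and 181 at 1 h, 351, 562 and 445 at 5 h and 263, 295 and 220 at 15 h, and the 5 h values lay above all 6 neighbours. The steps were 2.52-fold and 1.73-fold, and the contrast was 1.06 (limma adjusted p = 0.00171). Etv5, an ETS factor that ERK signalling induces, read 101, 107 and 118 at 1 h, 244, 339 and 356 at 5 h and 183, 197 and 138 at 15 h, again without overlap, with a contrast of 1.18 (adjusted p = 0.00284). Both calls were kept without any single array and without the block. Spred1, an inhibitor of the pathway, peaked (0.76, adjusted p = 0.00252), while Spry1, another inhibitor, dipped (−0.64, adjusted p = 0.0288). Spred1 lost its call without the block (0.0987) and without the arrays numbered 1 (0.0599). Spry1 was lost without 1 h replicate 2 (0.0675), 5 h replicate 1 (0.111), 5 h replicate 2 (0.144), 15 h replicate 1 (0.0649) or 15 h replicate 2 (0.0629), and without the block (0.138).

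Phlda3 and Cdkn1a had some of the largest contrasts, and both are known targets of p53. Phlda3, which restrains the kinase Akt, read 1654, 838 and 2256 at 1 h, 3859.8, 3562 and 3847 at 5 h and 1189, 1219.6 and 1302 at 15 h. The 5 h values lay above all 9 others, by 2.57-fold and 3.04-fold, and both steps passed together (limma adjusted p = 0.0378). Cdkn1a, the cell cycle inhibitor p21, read 2084, 608 and 3014 at 1 h, 4342, 2230.3 and 2674 at 5 h and 313, 407 and 206 at 15 h. It rose in replicates 1 and 2 but not in replicate 3 between 1 and 5 h, and then fell in all 3, by 9.95-fold. Its contrast of 2.12 ± 0.36 was the highest of all peaks (limma adjusted p = 0.00356, and 0.064 without the arrays numbered 1), but the first step of 1.89-fold did not pass (adjusted p = 0.195). The 19 tested p53 targets as a group were balanced: 3 peaked, Aen being the third (0.50), and 3 dipped, Gadd45a (−0.96), Plk2 (−0.96) and Sesn1 (−0.60). The calls of Aen and Gadd45a were each lost without any of several single arrays, with the highest adjusted p without 5 h replicate 3 (0.147 and 0.192), and Aen and all 3 dips were lost without the block. Mdm2, another target, had a contrast of 0.15 (limma adjusted p = 0.529).

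Other genes had a sharp maximum at 5 h without belonging to a list. Ggct, an enzyme of glutathione breakdown, read 198, 139 and 158 at 1 h, 882, 1458 and 685 at 5 h and 543, 512 and 338 at 15 h, and 154, 244 and 202 at 25 h. All 3 of its 5 h values lay above the 9 others, 5.87-fold above 1 h and 2.11-fold above 15 h (contrast 1.81, limma adjusted p = 0.000431). Ptpn22, a tyrosine phosphatase best known from lymphocytes, read 199, 234 and 296 at 1 h, 594, 938 and 1308 at 5 h and 360.4, 333 and 577 at 15 h. Replicate 3 was the highest from 1 to 15 h, and the 5 h values lay above all 9 others. Both steps passed together (limma adjusted p = 0.0413). Both calls were kept without any single array, without the block and without the arrays numbered 1. Lbh (1.23) and Septin9 (1.10) were also among the 12 largest non-overlapping peaks, but lost their calls without the block (limma adjusted p = 0.0615 and 0.0594).

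The remaining genes with both steps up were Stc1, Abhd1, Ing1, Ing2, Tmbim1, Tmem50b and Myo10, some of them named for this after their values were seen. Ing1 and Ing2, readers of methylated histone H3 in chromatin complexes, behaved alike. Ing1 read 859.9, 818 and 927 at 1 h, 1597, 1844 and 1704 at 5 h and 1063, 990.3 and 942 at 15 h, and Ing2 read 389.5, 423 and 440.5 at 1 h, 792, 647 and 768 at 5 h and 393, 412 and 367 at 15 h. The 5 h values of both genes were tight and clear of all 6 neighbours, with steps of 1.97-fold and 1.72-fold for Ing1 and 1.76-fold and 1.88-fold for Ing2. Myo10, a myosin that carries cargo to the tips of filopodia, rose 1.96-fold and fell 1.91-fold. Stc1, the secreted glycoprotein stanniocalcin 1, read 435, 365 and 125 at 1 h, 2089, 526 and 372 at 5 h and 379, 317 and 109.7 at 15 h, with replicate 1 far above the others at 5 h. It rose 2.74-fold and fell 3.14-fold, passed only with the block (adjusted p = 0.201 without it), and its 5 h replicate 3 lay below 1 h replicate 1.

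**Figure D2:**
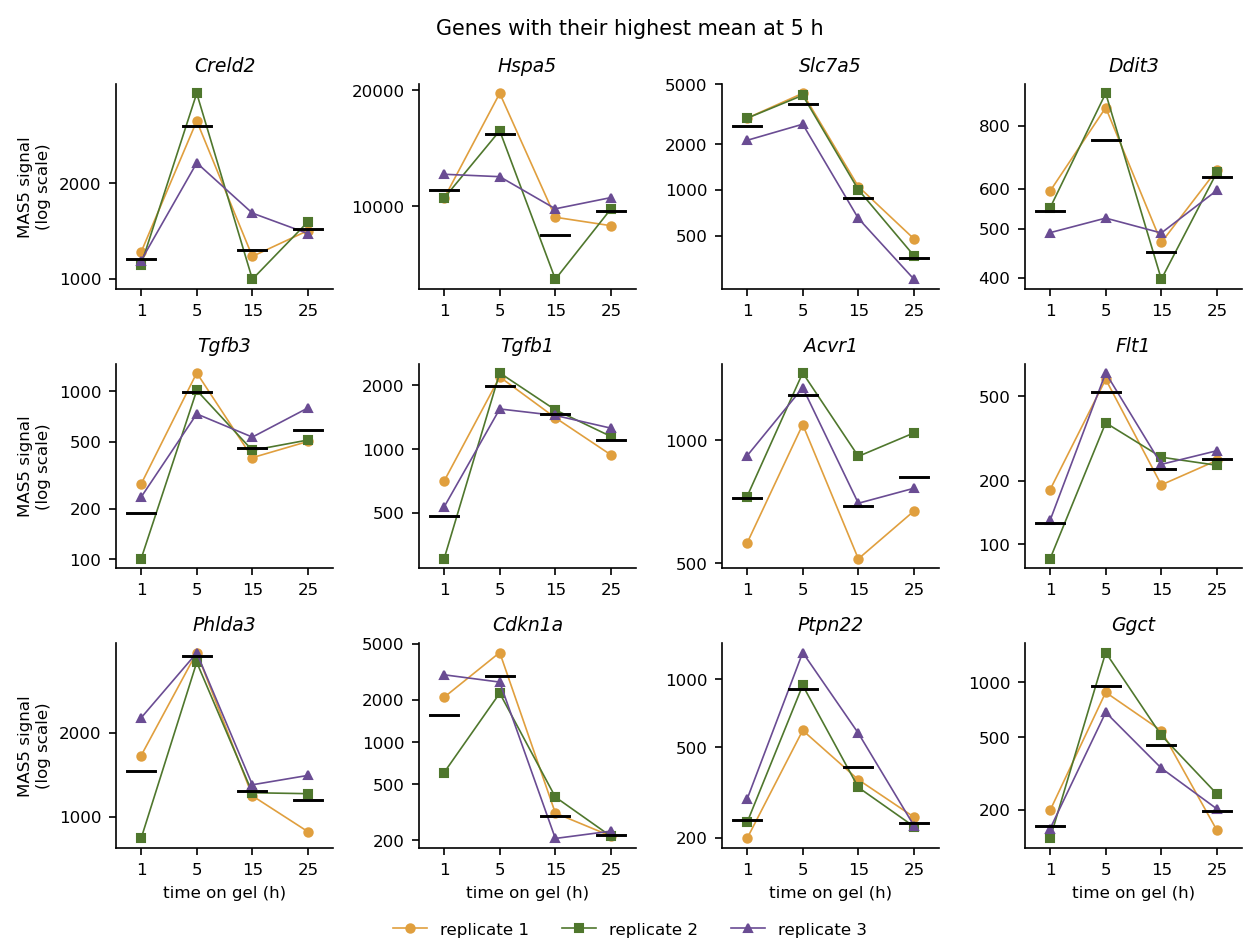
MAS5 signal on a log axis against time on the gel for 12 genes with their highest mean at 5 h, 1 panel a gene with its own axis. Symbols and lines are replicates 1 to 3, and black bars are the mean of the log2 signals at each time. In Creld2, Tgfb3, Flt1, Phlda3, Ptpn22 and Ggct every replicate is highest at 5 h among 1, 5 and 15 h, while Hspa5 and Cdkn1a fall in replicate 3 between 1 and 5 h.

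Deptor, a protein that binds and restrains the kinase mTOR, read 167, 139.9 and 361 at 1 h, 31.8, 29.8 and 78.7 at 5 h and 259, 316 and 538 at 15 h, and 322, 364 and 682 at 25 h. Within each number 5 h was the minimum and the 5 h values lay below all 9 others. It stood 4.83-fold below 1 h and 8.38-fold below 15 h, with a contrast of −2.67 ± 0.18, and it had the smallest p of all tested genes for both steps (limma adjusted p = 0.000425). Signals of replicates 1 and 2 at 5 h lay under the 25th percentile of all signals (44.9), where MAS5 values carry much background. With an offset of that size the contrast was −1.83.

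Pfkfb3, which makes fructose 2,6-bisphosphate and so speeds glycolysis, read 294, 415 and 305 at 1 h, 71.7, 89.5 and 172 at 5 h and 445, 652 and 945 at 15 h. The 5 h values lay below all neighbours, by 3.23-fold and 6.29-fold, and both steps passed together (limma adjusted p = 0.0104). It was the only dip among the 24 tested genes of the glycolysis and hypoxia list. On that list Ero1a and Higd1a peaked, Higd1a not without 5 h replicate 1 (0.116). The enolase gene Eno2, which is not on the list, dipped as well (−1.55). Lpin1, a phosphatidate phosphatase and coactivator of fat metabolism, read 489.5, 622 and 592 at 1 h, 159, 245 and 122 at 5 h and 399, 507 and 362 at 15 h, 3.36-fold below 1 h and 2.49-fold below 15 h without overlap (limma adjusted p for both steps = 0.0104). The calls of Deptor, Pfkfb3 and Lpin1 were kept without any single array, without the block and without the arrays numbered 1. Without the arrays numbered 1 Ero1a (limma adjusted p = 0.0632) and Higd1a (0.176) lost theirs.

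Kinase and phosphoinositide genes followed. Pim3, a serine/threonine kinase that promotes survival, read 2319.6, 1558 and 3113 at 1 h, 1183, 901 and 1189 at 5 h and 2113, 1615 and 2569 at 15 h, with all 5 h values below all others (limma adjusted p for both steps = 0.0104). Plekha1, which binds phosphatidylinositol 3,4-bisphosphate, fell 2.30-fold from 1 h and stood 1.81-fold below 15 h, and Pik3c2a, a class II phosphoinositide 3-kinase, 1.80-fold and 1.69-fold. Pik3c2a lost its call without the block (0.0906) and without the arrays numbered 1 (0.0515), and its other probe set above the filter did not dip.

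Il6st is gp130, the receptor chain shared by interleukin 6 and related cytokines. It read 1417, 1399.9 and 3562 at 1 h, 782, 684 and 1839 at 5 h and 1519, 1316 and 3186 at 15 h. Replicate 3 lay well above the others at each time, and every number had its minimum at 5 h, by 1.93-fold and 1.86-fold on average (limma adjusted p for both steps = 0.0104). Without the block that offset enters the spread and the contrast has an adjusted p of 0.271. Wnt16, a Wnt ligand, has the same layout, with 59.2, 54.2 and 488 at 1 h, 7.9, 9.0 and 145 at 5 h and 114, 179 and 1597 at 15 h. Its contrast of −3.15 shrank to −1.68 with the offset of the 25th percentile and lost its call without the block (adjusted p = 0.171), and the dip in replicates 1 and 2 lies among dim signals. Slc1a3, a glutamate transporter that read 242, 156 and 529 at 1 h, 43.0, 37.0 and 273 at 5 h and 265, 255 and 810.5 at 15 h, lost its call without the block too (0.105).

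Transcription factors were among the dips too. Foxd1, a forkhead factor of embryonic stroma, read 2016, 1748 and 2182 at 1 h, 996, 740.1 and 924 at 5 h and 2220, 2091 and 1955 at 15 h. The 3 values at 5 h lay far below all 9 others, with steps of 2.24-fold and 2.37-fold (limma adjusted p for both steps = 0.00251), and 25 h was at 2366, 1828 and 2347. Nfix, a nuclear factor I gene, fell 1.63-fold and recovered 1.75-fold. Both calls were kept in every leave-out and without the block. Osr1, a zinc finger factor of mesenchyme, dipped as well (−1.37, limma adjusted p = 0.00736), with −0.90 without 5 h replicate 2 and an adjusted p of 0.0615 without the block.

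Further genes with both steps down were Mbp, Ptpn13, Slc44a2, St3gal5 and the Wnt receptor Fzd2. Ptpn13, a large tyrosine phosphatase, read 224, 165 and 463 at 1 h, 114, 104 and 199 at 5 h and 696, 677 and 1054 at 15 h. It fell 1.94-fold in 3 of 3 pairs before a 5.95-fold rise that went on to 1319, 992 and 1630.1 at 25 h. St3gal5, the enzyme that makes the ganglioside GM3, read 771, 662 and 677 at 1 h, 418, 420.5 and 360.3 at 5 h and 609, 698 and 769 at 15 h, a shallow dip with no overlap. Mbp, the gene of myelin basic protein and of related proteins outside myelin, read 202, 262 and 210.1 at 1 h, 71.9, 100.2 and 85.0 at 5 h and 189, 289 and 212 at 15 h, dim throughout and with the 3 lowest values at 5 h. Kank3 (−2.04), Eno2 (−1.55) and Cnnm2 (−1.62) dipped too, and Kank3 stood 2.12-fold below 1 h and 7.97-fold below 15 h. Fzd2 lost its call without the arrays numbered 1 (limma adjusted p = 0.0575), and Cnnm2 without the block (0.0589).

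**Figure D3:**
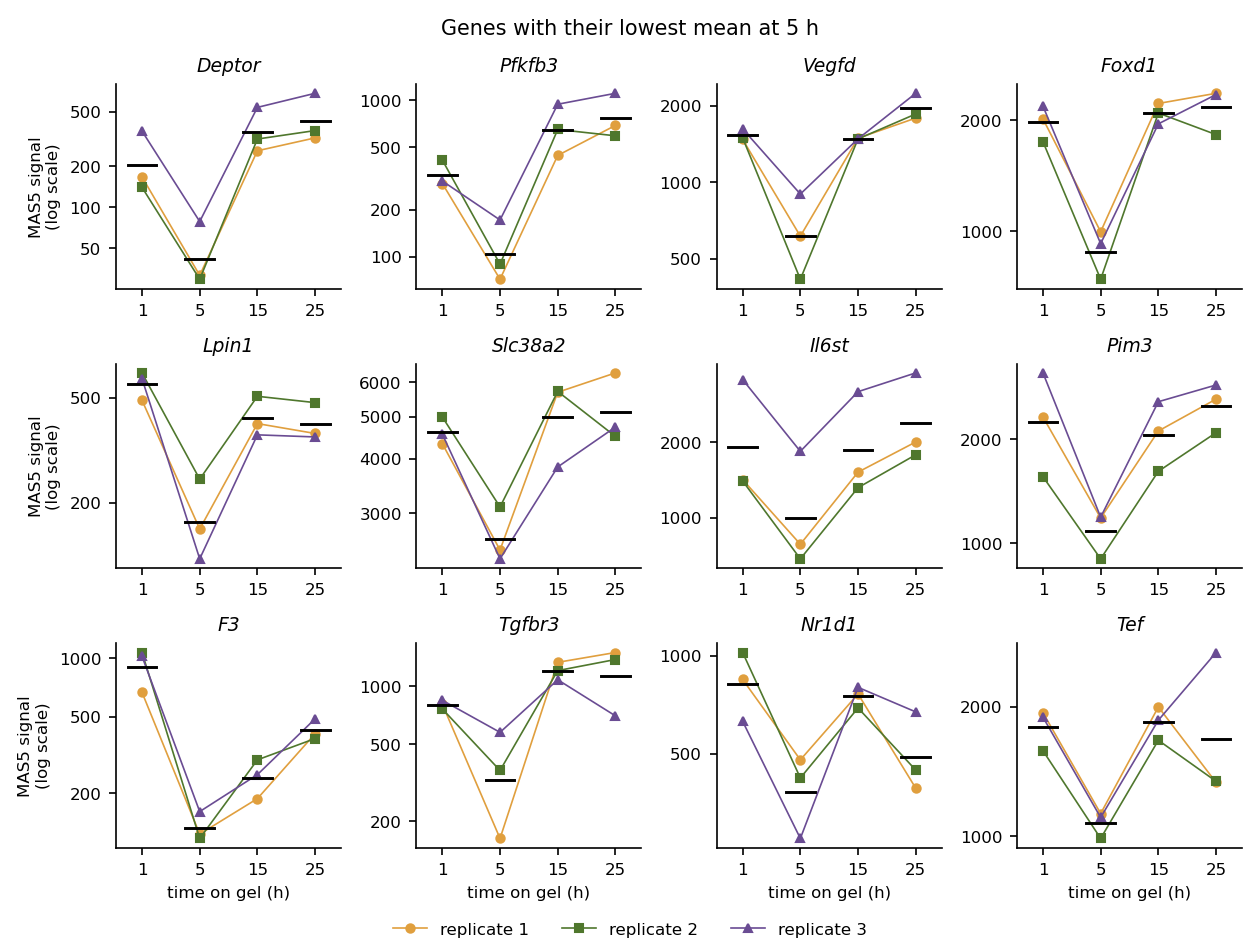
MAS5 signal on a log axis against time on the gel for 12 genes with their lowest mean at 5 h, drawn as for the peaks (symbols are replicates 1 to 3, bars the mean of the log2 signals). Every replicate of every gene shown is lowest at 5 h among 1, 5 and 15 h. The replicates of Tgfbr3 spread from 162 to 577 at 5 h, and in Il6st and Deptor replicate 3 stays above the others.

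The circadian clock list had the lowest median contrast of all lists, −0.69, with 5 of 12 tested genes dipping (41.7%) and 1 peaking. Nr1d1, the repressor REV-ERB alpha, read 846, 1023 and 629 at 1 h, 479, 422 and 275 at 5 h and 764, 692 and 800 at 15 h. All 5 h values lay below all 6 neighbours, by 2.14-fold and 1.97-fold, and the 25 h values of 392, 446 and 673 overlapped those of 5 h. Its contrast was −1.04 ± 0.22 (limma adjusted p = 0.0094), and −0.77 without 5 h replicate 3 (adjusted p = 0.0624). Tef, a PAR bZIP factor that the clock drives, read 1936, 1579.7 and 1890.4 at 1 h, 1129, 988 and 1105 at 5 h and 1997, 1671 and 1860.1 at 15 h, a dip of 1.67-fold and 1.71-fold with no overlap. Its adjusted p was 0.0111 in limma, 0.0645 without 5 h replicate 3, 0.0783 without the block and 0.0747 without the arrays numbered 1.

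Nr1d2 (−0.66), Rora (−0.86) and Dbp (−1.36) were the other dips, while Clock, an activator of the loop, peaked (0.44). Dbp was dim at 1 h and at 5 h, 99.8, 106 and 117 against 71.6, 95.3 and 92.8, and rose 5.26-fold by 15 h, while its first step of 1.25-fold did not pass (limma adjusted p = 0.527). Nr1d2 lost its call without 5 h replicate 2 (0.082), Rora and Dbp without the block (0.189 and 0.0695). Arntl, the partner of Clock, had a contrast of 0.11 (adjusted p = 0.741). The 5 dips of the list became 1 without the block, 2 without the arrays numbered 1 and 4 without 5 h replicate 2. The call of Clock was lost in each of these settings. The letters CACGTG, which the Clock and Arntl pair binds, stood in the RefSeq promoters of 1 of the 5 dipping genes, Tef, and in 7.15% of all entries. Among tested genes with an entry 759 of 6049 held them (12.55%), and among all dips with an entry 56 of 402 (13.93%). Per1 of the clock list, which was not called, held them too.

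The tested immediate early genes lay on median below their 1 h level and close to their 15 h level. Of 29 tested, 6 dipped (20.7%) and 0 peaked in limma (0 peaked and 11 dipped at an unadjusted p under 0.05), and the median step was −0.95 from 1 h but −0.10 from 15 h. Fosb read 792, 723 and 995 at 1 h, 71.9, 89.0 and 74.0 at 5 h and 88.9, 99.3 and 85.7 at 15 h, a 10.6-fold fall from 1 h with 5 h and 15 h alike (1.17-fold, limma adjusted p = 0.547). Under quantile normalization its 5 h mean was no longer below that of 15 h. Egr1 read 9892, 11169.5 and 10549.8 at 1 h, 3488, 1130.1 and 2029 at 5 h and 2927, 3764 and 2391 at 15 h, a 5.26-fold fall. It lay below 15 h in 2 of 3 pairs, and that step of 1.49-fold did not pass (adjusted p = 0.139). Fos (−1.47), Zfp36 (−1.14), Egr3 (−0.96) and Junb (−0.72) completed the 6. Fos was lost without 5 h replicate 2 (0.0573) or the block (0.0553). Zfp36 was lost without 5 h replicate 2 (0.0721) or 5 h replicate 3 (0.0559) and without the block (0.125). Junb was lost without 5 h replicate 3 (0.102) or the block (0.253). Junb was level between 5 h and 15 h (1.003-fold, limma adjusted p = 0.989) and lay higher at 5 h in 2 of 3 pairs. Without 15 h replicate 3 the 5 h mean of Junb was no longer the lowest.

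Targets of SRF and YAP, which respond to actin tension, showed the same layout. Of 24 tested 8 dipped (33.3%) and 0 peaked in limma (0 peaked and 10 dipped at an unadjusted p under 0.05), with median steps of −0.76 from 1 h and 0.08 from 15 h. Ccn2, or CTGF, read 1764, 5592 and 829 at 1 h, 408, 479 and 169.8 at 5 h and 797, 976 and 373 at 15 h. Within each number 5 h was the minimum, but 15 h replicate 3 lay below 5 h replicates 1 and 2. It fell 6.27-fold from 1 h and stood 2.06-fold below 15 h (contrast −1.85, limma adjusted p = 0.000954, and 0.092 without the block). Thbs1 (−1.85), Ajuba (−1.31), Ankrd1 (−1.18), Fhl2 (−0.90), Amotl2 (−0.77), Lats2 (−0.69) and Zyx (−0.56) were the other dips. The smooth muscle genes of the list, Tagln, Myl9 and Acta2, passed the test with 5 h between its neighbours. The 8 dips became 1 without the block, 3 without the arrays numbered 1 and 6 without 5 h replicate 2.

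Mitotic genes had the reverse shape, a level close to that of 1 h followed by a fall. Of 29 tested genes of G2/M 9 peaked (31.0%) and 0 dipped in limma (12 peaked and 0 dipped at an unadjusted p under 0.05), with a median step of 0.03 from 1 h and 0.79 from 15 h. Aurka, a kinase of the spindle poles, read 1478, 1149.7 and 896 at 1 h, 1619, 1502 and 1542 at 5 h and 649.9, 597 and 446 at 15 h. The 5 h values were the highest of the 9 and close together, though 1 h replicate 1 came near them. The first step of 1.35-fold did not pass (limma adjusted p = 0.132) and the second of 2.79-fold did (adjusted p = 7.67e-05). Tpx2 (0.87), Cdc20 (0.61), Kif23 (0.61), Plk1 (0.60), Birc5 (0.56), Cenpe (0.54), Cdk1 (0.52) and Cenpa (0.48) followed. Of 29 genes of G1/S and replication 0 peaked and 0 dipped in limma. At an unadjusted p under 0.05, 4 peaked and 0 dipped, against 848 and 965 of all 7379 tested genes. Mcm3 alone passed with 5 h between its neighbours. In ribosome biogenesis 5 of 29 peaked, among them Ebna1bp2 (0.85) and the nucleolar Rrp12, Nhp2, Fbl and Wdr12. Each of the 9 G2/M genes lost its call without the block, and 2 remained without the arrays numbered 1. Of the 5 ribosome genes 1 kept its call without the block and 2 without the arrays numbered 1. Without 5 h replicate 3 the calls of Plk1 (limma adjusted p = 0.0556), Birc5 (0.118), Rrp12 (0.139), Fbl (0.0715) and Wdr12 (0.152) were lost, and without 5 h replicate 2 that of Cdc20 (0.0587).

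Matrix and coagulation genes dipped in part. F3, tissue factor, which starts coagulation, read 666, 1072 and 1024 at 1 h, 123, 117 and 161 at 5 h and 188, 298 and 250.1 at 15 h, and 407, 384 and 486 at 25 h. The 5 h values lay below all 9 others, 6.81-fold under 1 h and 1.82-fold under 15 h (contrast −1.82 ± 0.17, limma adjusted p = 8.43e-05). Among 20 proteases and plasminogen genes Mmp2, Adamts1 and Adamts5 dipped with it, and Adamts4 and Plaur, the urokinase receptor, peaked. Adamts1 (limma adjusted p = 0.0811), Adamts4 (0.128) and Adamts5 (0.155) lost their calls without 5 h replicate 2, and Plaur without the block (0.0725). Of the 4 dips of this list 1 was kept without the block, and of the 2 peaks 0. Of 22 collagens and basement membrane genes 3 dipped, all fibrillar collagens: Col1a1 read 20569, 13639.7 and 11942 at 1 h, 17959.8, 10912 and 8013 at 5 h and 24278, 14381 and 12422 at 15 h, lowest at 5 h in each number with an average step of 1.29-fold and 1.4-fold. Col1a2 (−0.33) and Col5a2 (−0.37) had similar sizes. These collagen calls depended on the block (limma adjusted p = 0.497, 0.351 and 0.451 without it) and on single arrays. Col1a1 and Col1a2 were lost without 5 h replicate 3 (0.0787 and 0.115) and Col5a2 without 5 h replicate 2 (0.111), and averaging the probe sets of Col1a1 took its adjusted p to 0.195.

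The summed signal of the fibroblast markers, these type I collagens among them, had its lowest median at 5 h. The 13 measured genes summed to 51034.8 to 72361.3 at 5 h, against 59079.5 to 79764.2 at 1 h and 68363.1 to 100257.4 at 15 h, ranges that overlap. Of the 10 above the filter, Pdgfra, Col1a1 and Col1a2 dipped and 0 peaked. Lum, Fap and Pi16 stayed below the filter. The part of the marker change in the dips was not tested. Pericyte and smooth muscle markers summed to 8572.7 to 17166.8 at 5 h, between 1 h (9425.3 to 22907.9) and 15 h (4641.2 to 6709.4), and 1 of 5 above the filter, Cspg4, peaked.

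Smaller counts came from the remaining lists. Of 12 interferon-stimulated genes 4 dipped (Ifit1, Irf9, Stat2 and Irgm1) and 0 peaked in limma (0 peaked and 6 dipped at an unadjusted p under 0.05), with a median contrast of −0.56. Ifit1 was led by replicate 3, with 126, 93.3 and 358 at 1 h, 43.1, 83.8 and 283 at 5 h and 159, 181 and 928 at 15 h, and each of the 4 lost its call without the arrays numbered 1. Lysosomal Glb1, Neu1, Psap and Mcoln1 dipped among 23, with a first step in Glb1 of 1.06-fold. Among 26 inflammatory genes Csf3, Cxcl2, Vcam1 and Nfkb2 peaked and Cxcl12 and Ptx3 dipped. Csf3, a growth factor of neutrophils, read 765, 447 and 763 at 1 h, 1981, 334 and 1775 at 5 h and 173, 279.7 and 254 at 15 h, and replicate 2 was lower at 5 h than at 1 h. Its contrast of 1.46 (adjusted p = 0.0284) was 0.91 without 5 h replicate 1 (limma adjusted p = 0.184), and 2.27 without 5 h replicate 2. In cholesterol synthesis Hmgcs1 and Stard4 dipped among 18, in heat shock proteins Dnajb1 peaked and Hspa4l dipped among 18, and in the NRF2 list Srxn1 and Txnrd1 peaked and Gstm1 dipped among 22. Of 7 integrins above the filter Itga5 peaked and Itgb5 dipped.

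Without the block none of these calls in the interferon, lysosome, inflammatory, cholesterol, heat shock, NRF2 and integrin lists was kept. They also rested on single arrays. Without 5 h replicate 1 limma no longer called Irf9 (adjusted p = 0.153), Stat2 (0.215), Irgm1 (0.0868), Mcoln1 (0.089), Cxcl2 (0.161), Vcam1 (0.105), Cxcl12 (0.161), Stard4 (0.0857), Hspa4l (0.106), Dnajb1 (0.0953) and Itga5 (0.137). Without 5 h replicate 2 it did not call Glb1 (0.113), Ptx3 (0.0753) and Itgb5 (0.085), and without 5 h replicate 3 not Neu1 (0.166), Psap (0.206), Hmgcs1 (0.0853), Srxn1 (0.155) and Txnrd1 (0.0543). Several of them were lost without other arrays as well. In Vcam1, Itga5, Dnajb1, Txnrd1, Fbl, Aen, Aars and Stard4 the 1 or 2 other probe sets above the filter gave no call in the same direction.

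**Figure D4:**
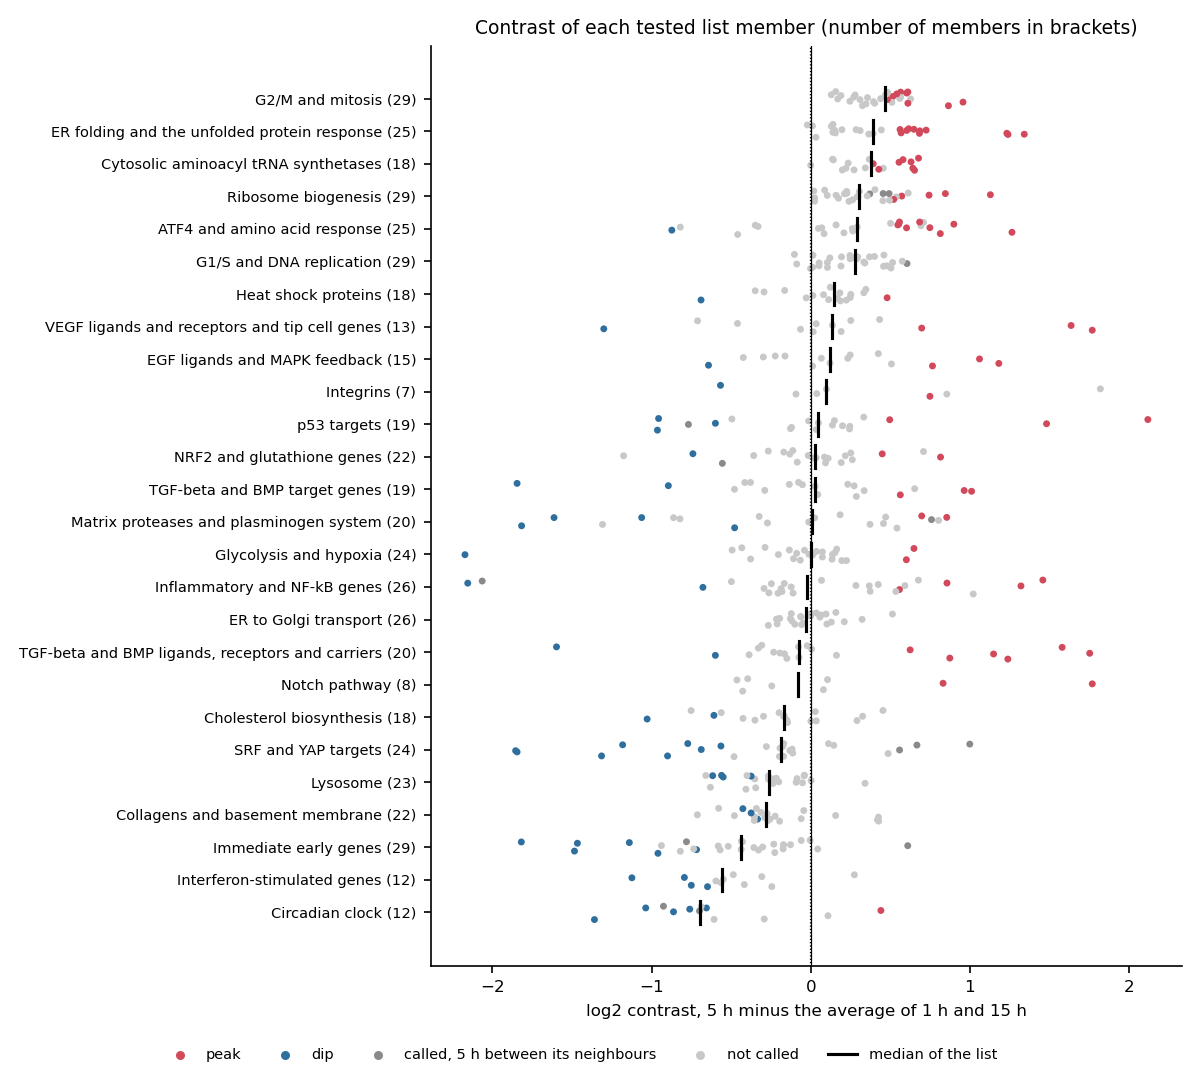
Each point is the log2 5 h contrast of 1 tested member of a gene list, with the number of members in brackets, lists ordered by their median (black bar). Red marks peaks, blue dips, dark grey genes called with 5 h between its neighbours, and light grey genes not called. Medians run from −0.69 for the clock to 0.47 for G2/M and mitosis, and the dotted line is the median of all genes at −0.01.

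Genes lay close on both sides of the threshold. Just inside it were Camk2d (0.66), Fkbp3 (0.40) and Flot1 (−0.48), and just outside it Ube2e1 (0.43), Atp2a2 (0.36) and Clcn7 (−0.42), as log2 contrasts with limma adjusted p from 0.0496 to 0.0501.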

How the data were processed

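RNA of MB114 cells was labelled from 6 ug of total RNA and hybridised to 12 single-colour Affymetrix arrays, 3 biological replicates at each of 4 times, per the labels' protocols. The authors deposited MAS5 signal, a linear intensity per probe set, per the submitters' processing notes, with a trimmed mean near 500 on every array (500.1 to 500.2). For the MAS5 version and detection calls, nothing is given in the sources used here. Precision is limited by the number of arrays. Of 22690 probe sets 64 controls and 1 incomplete one were left out; 20379 had 1 gene symbol in the platform annotation, 691 several and 1555 none.

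Log2 of the deposited signal was used without an offset. Probe sets at or above the median signal (183.1) on at least 3 of all 12 arrays were kept. The brightest per gene over the 12 arrays was taken, giving 7379 genes. All 12 arrays were fitted with limma 3.58.1 in R 4.3.3 (time means, replicate block, intensity trend), 2-sided, with Benjamini-Hochberg adjustment. The block was set by the rule for this state, with the replicate numbers of the titles. Equal numbers deviated together at all times (18 pairs, r from 0.33 to 0.76, against −0.59 to 0.20 for 36 pairs of unequal number). Deviations were taken from the mean of each time, which by itself lowers the values for unequal numbers. The source of the shared deviations was not tested. Folds are from means of log2 signals, and ± marks SE of a contrast or SD of signals.

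Genes were named as the 12 largest non-overlapping peaks and dips, up to 5 called members per list and 7 fixed genes. Others, chosen after their values were seen, are those with both steps called, the remaining list members and promoter examples. The members and lists were chosen with earlier results of these data known. Promoters were searched for 9 motifs in RefSeq sequences of GRCm38.p6. Alternatives changed block, filter, scaling, offset, trend, probe choice and arrays.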

Additional observations from a re-analysis of the deposited data

How the results depend on the processing

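Without the replicate block 43 genes peaked and 67 dipped, and with both steps tested separately 11 and 18. Without all arrays numbered 1 the counts were 58 and 146. Leaving out single arrays gave 157 to 411 peaks and 251 to 507 dips, lowest without 5 h replicate 2 and highest without 25 h replicate 3. The 9 arrays alone, no filter, a stricter filter, an offset, median centring, quantile normalization, no intensity trend and averaged probe sets moved neither count by more than 1.5 times (257 to 394 peaks, 376 to 517 dips). The contrast of Vegfa turned from 0.14 to −0.10 without 5 h replicate 3 and to −0.02 without 15 h replicate 3, and ran from −0.10 to 0.32 over the single arrays left out, short of the threshold each time. The cause of these changes was not tested. Of the 129 called genes put forward for naming, 36 stayed called without any single array, without the block and without the arrays numbered 1. Dim signals limit Deptor, Wnt16 and Slc1a3, whose 5 h values fell near or under the 25th percentile of all signals (44.9) in replicates 1 and 2. They also limit Dll4, whose 15 h values were 66.8, 55.2 and 28.7.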
